A study of Mus musculus with 6 samples.

Results

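The 784 RBPJ peaks described here lay far from genes and were called in mitotic but not in asynchronous F9 cells, a murine embryonal carcinoma line derived from a testicular teratoma. They were selected from the 3227 peaks of mitotic cells by presence in that list and absence from the list of asynchronous cells, with no asynchronous peak center within 250 bp of their own center. Their centers also lay outside every annotated transcript, more than 10 kb upstream of any transcript start and more than 1 kb past any transcript end. They made up 24.3% of the mitotic list (22.8 to 25.8, Clopper-Pearson 95% interval) and 28% of the 2802 mitotic peaks without an asynchronous counterpart. For scale, 51.4% of the genome lay this far from genes. Presence and absence in the lists chose the members, so membership and peak scores are given as description only. Absence from the asynchronous list is not absence of RBPJ: it says that no peak was called there, and mitotic-only is used here in this sense. The study's own comparison, by read enrichment at each peak, counted most mitotic sites as common to both populations, and the reads were not examined here.

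The study compared where RBPJ sits on the genome in mitosis and in interphase. Chromatin immunoprecipitation with a custom rabbit antibody against RBPJ was followed by sequencing in asynchronous F9 cells (95% in interphase and 5% in mitosis according to the labels) and in F9 cells arrested in mitosis with nocodazole. Of the 6 sequenced samples, 2 immunoprecipitations and 1 input came from each population. Peak lists exist for the first immunoprecipitation of each population, with 5206 peaks of 173 bp in asynchronous cells and 3227 peaks of 203 bp in mitotic cells. There were therefore no replicates, and all intervals cover counting error only. The lists do not state the sequencing depth of a sample, and a difference in depth between the 2 populations was not examined.

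RBPJ is the DNA-binding protein through which Notch receptors act: it holds corepressors at its sites until the cleaved intracellular part of Notch binds it and recruits coactivators. Most transcription factors leave condensed chromosomes during mitosis, and those that keep some of their sites are said to bookmark them for the next cell cycle. CTCF is a zinc-finger protein that organizes chromosomes into loops and insulated domains.

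Sequences of 13 members show what the comparisons count, each over its full width on the plus strand of mm9. The 3 members with the highest scores are shown as the top of the ranking, the first of them far above the rest. Named by their nearest gene, they lie at chr17:39980174-39980376 (AY036118), chr3:5860553-5860755 (Pxmp3) and chr1:197067832-197068034 (AC109145.1), and capitals mark their 14, 18 and 21 CpG dinucleotides.
AY036118: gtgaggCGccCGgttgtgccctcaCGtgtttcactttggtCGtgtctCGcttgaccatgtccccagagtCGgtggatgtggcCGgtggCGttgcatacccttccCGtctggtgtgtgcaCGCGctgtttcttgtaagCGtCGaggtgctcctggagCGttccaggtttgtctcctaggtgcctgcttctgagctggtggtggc
Pxmp3: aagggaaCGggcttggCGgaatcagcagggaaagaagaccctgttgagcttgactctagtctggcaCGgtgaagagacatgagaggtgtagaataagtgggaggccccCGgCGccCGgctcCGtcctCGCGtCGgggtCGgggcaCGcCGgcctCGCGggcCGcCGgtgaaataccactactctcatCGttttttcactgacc
AC109145.1: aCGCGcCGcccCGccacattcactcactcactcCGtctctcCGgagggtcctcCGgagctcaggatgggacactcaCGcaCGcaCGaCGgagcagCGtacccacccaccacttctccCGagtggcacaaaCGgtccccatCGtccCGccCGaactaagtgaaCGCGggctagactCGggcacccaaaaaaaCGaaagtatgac

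The 4 highest scoring members with the RBPJ-binding motif TTCCCAC(A/G) show the sequence the factor recognizes, in capitals on the strand printed. They lie at chr12:107732936-107733138 (Gm17031), chr5:113775757-113775959 (Aym1), chr12:111390837-111391039 (Dio3os) and chr14:76966691-76966893 (Serp2), and in Gm17031 and Serp2 the motif is on the minus strand.
Gm17031: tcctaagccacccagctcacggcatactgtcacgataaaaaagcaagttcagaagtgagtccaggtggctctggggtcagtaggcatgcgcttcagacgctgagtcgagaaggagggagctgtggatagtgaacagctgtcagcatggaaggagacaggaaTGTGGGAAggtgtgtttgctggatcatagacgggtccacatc
Aym1: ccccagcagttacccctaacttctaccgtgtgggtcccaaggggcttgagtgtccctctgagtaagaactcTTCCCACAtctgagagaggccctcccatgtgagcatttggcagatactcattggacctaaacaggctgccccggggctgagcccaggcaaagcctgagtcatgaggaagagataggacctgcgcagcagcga
Dio3os: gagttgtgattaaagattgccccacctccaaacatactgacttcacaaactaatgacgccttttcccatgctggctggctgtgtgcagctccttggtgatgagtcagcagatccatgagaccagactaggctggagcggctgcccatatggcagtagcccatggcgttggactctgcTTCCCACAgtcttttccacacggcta
Serp2: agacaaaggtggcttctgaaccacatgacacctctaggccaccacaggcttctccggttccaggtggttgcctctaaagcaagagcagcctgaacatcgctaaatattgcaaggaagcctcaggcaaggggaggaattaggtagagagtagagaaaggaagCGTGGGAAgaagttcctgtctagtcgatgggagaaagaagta

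For the CTCF-binding motif, the 4 highest scoring members with a match to the core consensus at up to 1 mismatch are shown, with the match in capitals. They lie at chr13:23493800-23494002 (Gm11334, minus strand), chr13:13017971-13018173 (Prl2c2), chr8:72071399-72071601 (Gm7697) and chr12:106534679-106534881 (2810011L19Rik).
Gm11334: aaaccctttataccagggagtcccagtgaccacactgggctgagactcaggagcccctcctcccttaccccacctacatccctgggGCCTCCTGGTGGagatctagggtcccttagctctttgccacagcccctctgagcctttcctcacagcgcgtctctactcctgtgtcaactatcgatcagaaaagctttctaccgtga
Prl2c2: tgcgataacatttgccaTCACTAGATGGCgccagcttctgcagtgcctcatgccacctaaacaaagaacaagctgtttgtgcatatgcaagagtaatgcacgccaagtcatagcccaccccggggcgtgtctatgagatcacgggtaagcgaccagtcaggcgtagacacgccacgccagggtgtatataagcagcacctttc
Gm7697: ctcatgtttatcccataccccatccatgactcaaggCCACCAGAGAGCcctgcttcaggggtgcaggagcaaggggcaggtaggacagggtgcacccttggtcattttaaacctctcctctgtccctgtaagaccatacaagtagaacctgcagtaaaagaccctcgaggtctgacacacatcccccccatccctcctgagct
2810011L19Rik: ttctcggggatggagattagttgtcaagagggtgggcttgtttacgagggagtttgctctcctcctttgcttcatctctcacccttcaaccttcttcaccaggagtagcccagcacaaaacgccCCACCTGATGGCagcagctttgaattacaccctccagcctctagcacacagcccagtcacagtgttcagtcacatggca

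Another 2 members, at chr12:112718039-112718241 (Gm266) and chr3:131184650-131184852 (AC165333.1), carry a tandem repeat of GT, in capitals, and belong to the single group of members that shared sequence with each other.
Gm266: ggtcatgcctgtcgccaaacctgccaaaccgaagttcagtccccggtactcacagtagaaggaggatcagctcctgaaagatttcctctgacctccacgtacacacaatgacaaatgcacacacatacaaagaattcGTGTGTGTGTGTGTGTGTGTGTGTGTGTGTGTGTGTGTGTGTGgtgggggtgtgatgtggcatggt
AC165333.1: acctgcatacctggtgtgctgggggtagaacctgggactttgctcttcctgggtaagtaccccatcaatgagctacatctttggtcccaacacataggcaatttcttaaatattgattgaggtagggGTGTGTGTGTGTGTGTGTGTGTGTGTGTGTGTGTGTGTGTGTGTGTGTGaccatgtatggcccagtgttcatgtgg

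Most members were weak peaks. Their scores in mitotic cells, on the authors' scale, ran from 10.2 to 282.5 with a median of 10.9 and quartiles of 10.2 and 11.6. The lowest score in the mitotic list, 10.2, was held by 339 members (43.2%), and 543 members (69.3%) had either 10.2 or 10.9. A score above 15 was found in 21 members and above 20 in 12. In the whole mitotic list the median was also 10.9, so members were about as weak as mitotic peaks in general. The authors applied a cutoff of 1 RPM to their peaks, and the paper's text does not state how the score relates to RPM. The lowest scores were 10.2 in the mitotic and 10.1 in the asynchronous list. Scores of members came in steps, with 10.2, 10.9 and 11.6 as the lowest, so members below the median all had 10.2.

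**Figure D1:**
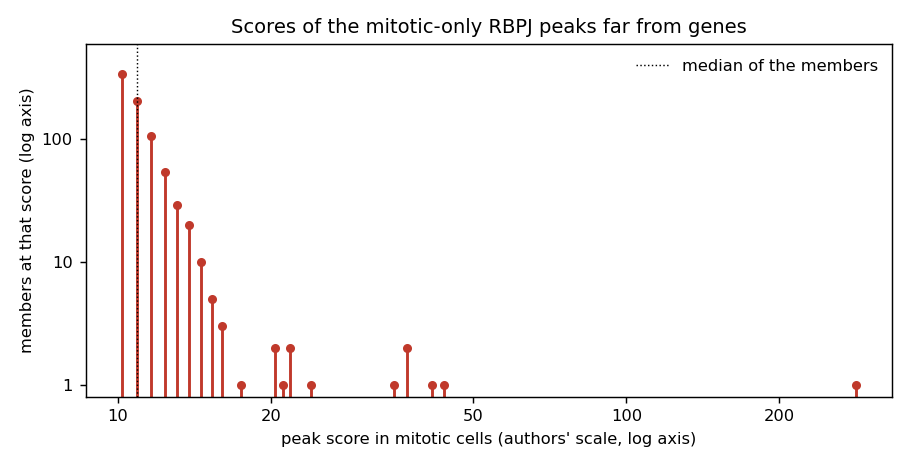
Number of members at each peak score in mitotic cells; both axes are logarithmic, each line with a point is 1 score value, and the dotted line is the median of the members. The counts fall from 339 members at a score of 10.2 to single members above 40, with 1 member at 282.5.

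The member at AY036118, 5.50 kb past the start of this annotated pseudogene, had the highest score of the whole mitotic list. Second came the member 284 kb upstream of Pxmp3, which encodes a membrane protein of peroxisome assembly, with a score of 43.7. The third was near the microRNA AC109145.1 with 41.5. Of the 36-base words of these 3 members, 5.07%, 43.5% and 21.7% also occurred elsewhere in the genome. Members near 4930467E23Rik (chr8:19717022-19717224) and 2610005L07Rik (chr8:20032646-20032848) both scored 37.1, and 73.9% and 69.6% of their 36-base words also occurred elsewhere in the genome. The member near Gm9880 (chr17:13498918-13499120) scored 34.9 with 66.7% of such words. By this count, which sees only copies in the assembled genome, 3 of the 6 highest scoring members lay mostly in sequence present in several copies. Where the sequences of these members come from was not examined. Next were Gm11334 with 24.0, Gm16708 and Gm17383 with 21.8 each, and Prl2c2, a gene of the prolactin family, with 21.1. None of these 10 held the RBPJ-binding motif, and the members at Gm11334 and Prl2c2 held the CTCF-binding motif.

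Close to the thresholds, the members with the nearest asynchronous centers had them 269, 275 and 342 bp away, and mitotic peaks far from genes that just missed the limit had them 226, 231 and 248 bp away. Upstream of a start, members at Lemd2 and Serp2 lay 10102 and 10127 bp away, and peaks at Zfp710 and a U6 gene were left out at 9802 and 9852 bp. Past an end, the nearest members lay at 1055 bp (Sertad2) and 1070 bp (Gm10398), and peaks at SNORA17 and Mfsd5 were left out at 955 and 977 bp.

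Sequence features, which the selection did not use, were compared in windows of 173 bp around the centers. Members were set against 1568 flanking windows centered 2 kb to either side, 1043 asynchronous-only peaks far from genes, 80 peaks far from genes shared by both lists and centered on the mitotic peak, and 1011 mitotic-only peaks in introns. Each share was tested with a two-sided Fisher's exact test, odds ratios have Woolf 95% intervals, and p-values were adjusted over all 41 sequence comparisons by the Benjamini-Hochberg method. Of these, 17 passed an adjusted p of 0.05: 6 against flanks, 7 against asynchronous-only peaks, 4 against shared peaks and 0 against introns. The comparison of multi-copy sequence with flanks, 1 of these 17, is not read as a result, since the authors kept only uniquely aligned reads. Neighboring peaks and windows are not independent, which these tests do not take into account.

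Few members held the RBPJ-binding motif. TTCCCAC(A/G) was present on either strand in 12 of 784 members (1.53%, 0.793 to 2.66), as against 25 of 1568 flanking windows (1.59%). The odds ratio to the flanks was 0.959 (0.479 to 1.92), with an adjusted p of 1 in Fisher's exact test. Among asynchronous-only peaks far from genes the motif was present in 104 of 1043 (9.97%, 8.22 to 12.0), and the odds ratio of members to these was 0.140 (0.0766 to 0.257; adjusted p = 2.47e-14, Fisher's exact test). It ranged from 0.0651 to 0.472 over 12 alternatives and passed the threshold in all of them. Mitotic-only peaks in introns held the motif in 21 of 1011 (2.08%), and the odds ratio of members, 0.733 (0.358 to 1.5), did not pass. Shared peaks far from genes held it in 5 of 80 (6.25%), with an odds ratio of 0.233 (0.08 to 0.680; adjusted p = 0.0391, Fisher's exact test) that lost the threshold under 6 of 13 alternatives. Centered on the asynchronous peak instead, a setting chosen after seeing the data, 8 of the 80 (10.0%) held the motif, and the odds ratio was 0.140 (adjusted p = 5.27e-04, Fisher's exact test).

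With the shorter string TTCCCA, the direction against the flanks turned: 169 members (21.6%) held it against 240 flanking windows (15.3%), an odds ratio of 1.52 (adjusted p = 6.32e-04, Fisher's exact test). The same string was less frequent in members than in asynchronous-only peaks, 36.8% of which held it, with an odds ratio of 0.472. Whether the higher GC content of members accounts for the difference from the flanks was not tested for this string.

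Over their full width of 203 bp, 13 members held TTCCCAC(A/G), with scores of only 10.2 to 13.1. Gm17031 scored 13.1, Aym1 12.4, and Dio3os and Serp2 10.9 each. Another 9 were tied at 10.2, and the first 6 of these in the order of the list were nearest to Kbtbd10, a kelch protein of muscle, 2610028E06Rik, Fam20c, a kinase of secreted proteins, Oaf, Dusp7, a phosphatase of MAP kinases, and Mrps23, a protein of the mitochondrial ribosome. Distances of these 10 members to the starts ran from 10.1 kb at Serp2 to 125 kb at Dio3os, and the nearest asynchronous peak was 12286 bp away from the member at Aym1 and farther from the rest. None of the 10 held the CTCF-binding motif.

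The 2 motifs were counted at unlike stringency, so their shares in members do not rank them. With exact matches for both, the RBPJ-binding motif was in 12 members and the CTCF-binding motif in 14. In the paper's summary, fewer mitotic-specific peaks held a CTCF than an RBPJ motif, for a set defined by read enrichment. The CTCF-binding motif was found at up to 1 mismatch in 54 members (6.89%, 5.22 to 8.89) and in 25 flanking windows (1.59%), an odds ratio of 4.57 (2.82 to 7.39; adjusted p = 8.23e-10, Fisher's exact test). Restricted to windows with a GC content of at least 50% on both sides, a setting chosen after seeing the data, the shares were 7.14% and 3.66%, the odds ratio was 2.03, and the adjusted p of Fisher's exact test was 0.0717, no longer past the threshold. Exact matches to the consensus were present in 14 members (1.79%) and 0.128% of flanking windows (odds ratio 14.2), and matches at up to 2 mismatches in 195 members (24.9%) and 12.9% (odds ratio 2.23).

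Compared with asynchronous-only peaks far from genes, members held the CTCF-binding motif less often. Of those peaks 231 (22.1%, 19.7 to 24.8) held it, and the odds ratio of members was 0.260 (0.190 to 0.355; adjusted p = 3.01e-19, Fisher's exact test). Shared peaks far from genes held it in 20 of 80 (25%), with an odds ratio of members of 0.222 (0.125 to 0.395; adjusted p = 7.62e-06, Fisher's exact test). In introns, 56 mitotic-only peaks (5.54%) had the motif and the odds ratio was 1.26 (0.858 to 1.86), which did not pass. Either of the motifs was present in 66 members (8.42%) and both in 0, against 315 (30.2%) and 20 of the asynchronous-only peaks.

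By score, the CTCF-binding motif was present in 19 of 339 members below the median (5.60%, 3.41 to 8.61), in 35 of 445 at or above it (7.87%, 5.54 to 10.8), and in 10 of the 80 members at or above the 90th percentile (12.5%, 6.16 to 21.8). The RBPJ-binding motif was present in 2.36% of the members below the median and in 0.899% of those at or above it. These intervals overlap, and the differences were not tested. Within the 54 members, the CTCF match lay a median of 32 bp from the peak center, and 19 (35.2%, 22.7 to 49.4) were within 25 bp, where an even spread over the window would place 30.9%. In asynchronous-only peaks the median was 24.5 bp, and 50.6% (44.0 to 57.3) were within 25 bp. The 12 RBPJ matches in members lay a median of 46.5 bp from the center, with 4 within 25 bp.

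Among motifs of other factors, the E-box CACGTG separated members from asynchronous-only peaks. It was present in 17 members (2.17%) and 81 of those peaks (7.77%), an odds ratio of 0.263 (0.155 to 0.448; adjusted p = 1.76e-07, Fisher's exact test), and in 2.23% of flanking windows. The AP-1 motif TGANTCA was present in 38 members (4.85%) and passed no comparison, with 5.42% in flanks and 6.04% in asynchronous-only peaks. ATTTGCAT, the octamer bound by Pou5f1, was found in 3 members (0.383%) and 14 asynchronous-only peaks (1.34%), an odds ratio of 0.282 with an adjusted p of 0.106 in Fisher's exact test, which passed under 3 of 10 alternatives. TCAAGGTCA, bound by the orphan nuclear receptor Esrrb, was found in 4 members (0.510%) and 19 asynchronous-only peaks (1.82%), with an odds ratio of 0.276 and an adjusted p of 0.0427 in Fisher's exact test that was lost under 5 of 10. None of these 6 motifs was present in 664 members (84.7%), as against 57.8% of asynchronous-only peaks, 83.6% of mitotic-only peaks in introns and 88.6% of flanking windows.

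**Figure D2:**
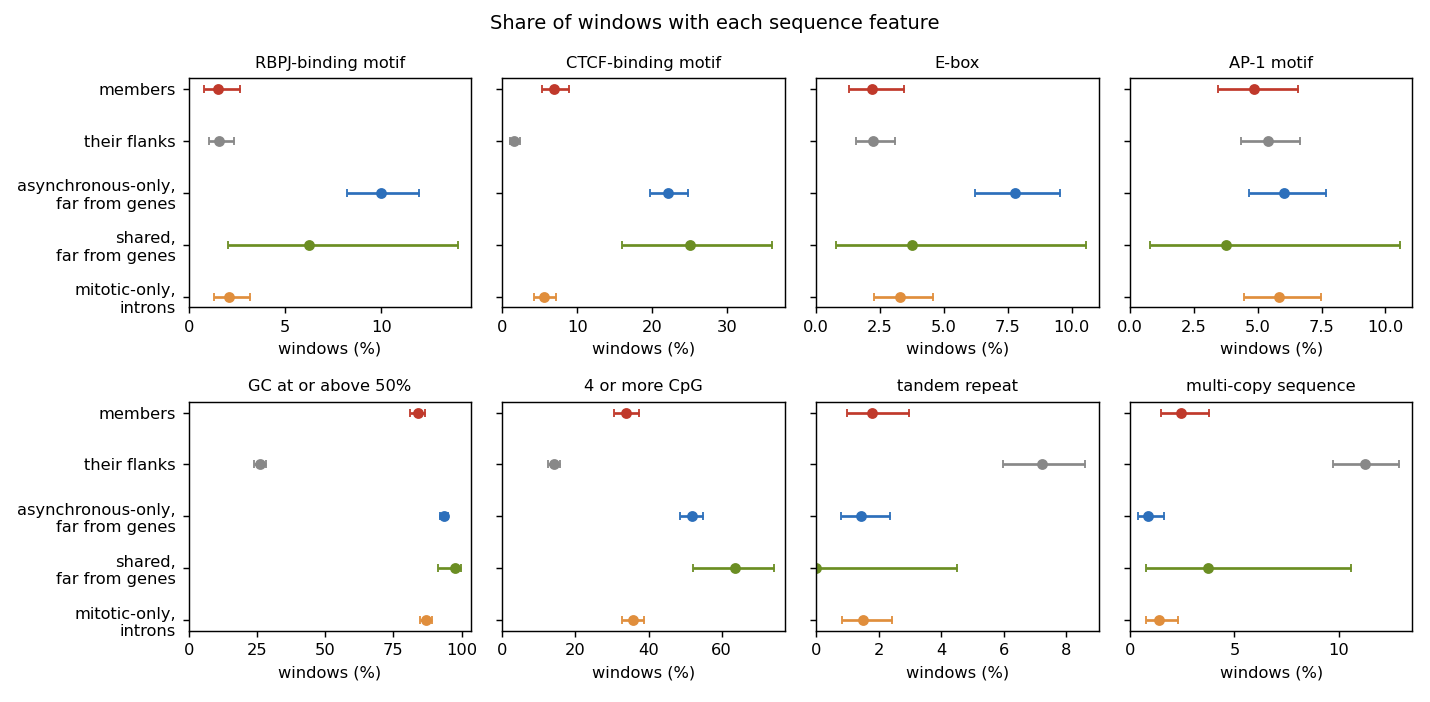
Percent of windows with each of 8 sequence features in members, their flanks and the other peak categories; points are shares and bars are Clopper-Pearson 95% intervals. None of the differences between members and mitotic-only peaks in introns passed the threshold, and members lie below asynchronous-only peaks for the RBPJ-binding motif (1.53% and 9.97%) and the CTCF-binding motif (6.89% and 22.1%).

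Members were richer in GC than the sequence around them. Their mean GC content was 53.2% (SD 3.26 over 784 members), and that of the flanking windows was 44.8% (SD 7.94). GC was higher in the member than in the mean of its own flanks in 701 of the 778 members that differed, by a median of 7.80 percentage points over all members (quartiles 3.76 and 12.5), with an adjusted p of 1.64e-125 in a two-sided exact binomial sign test. A GC content of at least 50% was reached by 658 members (83.9%) and 410 flanking windows (26.1%), an odds ratio of 14.7 (11.8 to 18.4; adjusted p = 1.85e-162, Fisher's exact test) that ranged from 12.0 to 97.7 over 10 alternatives. In profiles around the centers, GC averaged 52.9% within 100 bp and 45.8% beyond 500 bp, and the rise was 200 bp wide at mid-height. Thus the rise in GC was about as wide as the peaks.

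Against other peaks, members had less GC. At least 50% was reached by 977 asynchronous-only peaks (93.7%), with an odds ratio of members of 0.353 (0.258 to 0.483; adjusted p = 1.46e-10, Fisher's exact test). Shared peaks reached it in 78 of 80 (97.5%), an odds ratio of 0.134 (adjusted p = 0.00111, Fisher's exact test) that lost the threshold in 2 of 11 alternatives and was 0.0661 with shared peaks centered on the asynchronous peak. The share in introns was 87.0%, which did not pass (odds ratio 0.777, 0.597 to 1.01).

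**Figure D3:**
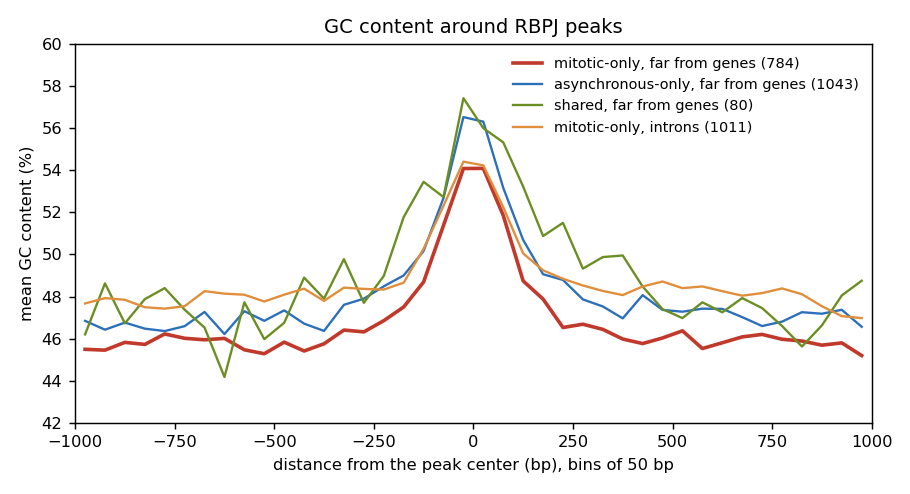
Mean GC content in bins of 50 bp up to 1000 bp on either side of the peak centers, with 1 line per category and the number of peaks in the legend. All 4 lines rise near the center; that of the members goes from 45.8% beyond 500 bp to 52.9% within 100 bp.

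CpG dinucleotides followed the same order. At least 4 were present in 266 members (33.9%) and 220 flanking windows (14.0%), an odds ratio of 3.15 (2.56 to 3.86; adjusted p = 1.12e-26, Fisher's exact test), which fell to 1.42 (adjusted p = 0.0436) within windows of at least 50% GC. Asynchronous-only peaks had 4 or more CpG in 51.8%, and the odds ratio of members was 0.478 (0.395 to 0.579; adjusted p = 1.36e-13, Fisher's exact test). Shared peaks had them in 63.8%, an odds ratio of 0.292 (adjusted p = 1.10e-06, Fisher's exact test), or in 72.5% and 0.195 when centered on the asynchronous peak. Peaks in introns had them in 35.6%, which did not differ past the threshold. The mean was 3.09 CpG per member, 60 members had 0, and the highest count, 16 in the window, was reached at the members near Pxmp3 and AC109145.1.

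Tandem repeats were less frequent in members than in their flanks, a difference not past the threshold in unique sequence. A perfect tandem repeat of a unit of 1 to 6 bases over at least 20 bases was present in 14 members (1.79%) and 113 flanking windows (7.21%), an odds ratio of 0.234 (0.133 to 0.411; adjusted p = 2.10e-08, Fisher's exact test). In windows without any multi-copy word, a setting chosen after seeing the data, members had one in 0.161% and flanks in 1.02%, with an odds ratio of 0.157 and an adjusted p of 0.176 in Fisher's exact test. Asynchronous-only peaks had one in 1.44% (odds ratio 1.25, 0.598 to 2.60), and for repeats of at least 30 bases this odds ratio was 3.70 (adjusted p = 0.0442, Fisher's exact test), while within windows of at least 50% GC it was 0.527 and without multi-copy words 0.300. Just 9 members shared sequence with each other in pairwise alignments, with a longest match of 61 bases, and all 9 held a tandem repeat. The other 775 members (98.9%) had no such match.

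Sequence present in several copies was counted by words of 36 bases. Copies missing from the assembled genome were not counted. In 19 members (2.42%, 1.47 to 3.76) at least 50% of the words occurred elsewhere in the genome, against 176 flanking windows (11.2%). Only reads with a unique alignment were kept by the authors, which limits what can be called in such sequence. The lower share than in flanks is therefore not read as a result, and how much the alignment contributed was not tested. Asynchronous-only peaks had fewer, 9 of 1043 (0.863%), and the odds ratio of members was 2.85 (1.28 to 6.34; adjusted p = 0.0301, Fisher's exact test); this call was lost under 5 of 11 alternatives, among them leaving out chromosomes 8 and 12 (odds ratio 1.56, adjusted p = 0.612). Mitotic-only peaks in introns had 14 of 1011 (1.38%), with an odds ratio of members of 1.77 (0.881 to 3.55). Shared peaks had 3 of 80 (3.75%), with an odds ratio of 0.637, and neither comparison passed. Counting windows with any such word, members had 20.8%, asynchronous-only peaks 10.5% and mitotic-only peaks in introns 10.3%. The odds ratios were 2.25 and 2.29, the second with an adjusted p of 3.83e-09 in Fisher's exact test. Of the shared peaks, 17.5% had such a word. By score, 8 of the 80 members at or above the 90th percentile (10.0%, 4.42 to 18.8) were of this kind with at least 50% of words, and 3 of the 339 below the median (0.885%).

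Members were unevenly spread over the chromosomes, a pattern noticed after seeing the data and given without a test. Chromosome 8 held 159 members (20.3%; 1.21 per Mb) and chromosome 12 held 137 (17.5%; 1.13 per Mb), where the genome averaged 0.295 per Mb. Chromosome 6 followed with 73 (0.488 per Mb), and chromosome X had 3 (0.0180 per Mb). Together chromosomes 8 and 12 carried 37.8% of the members on 9.53% of the genome, and 18.4% of the asynchronous-only peaks far from genes. Of the whole mitotic list 26.1% was on these chromosomes, and of the asynchronous list 15.2%.

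Within these chromosomes the members were gathered in stretches. From 80 Mb onward chromosome 12 held 127 of its 137 members. Chromosome 8 held members toward both ends, with 46 of its 159 in the first 30 Mb, 9 between 30 and 80 Mb and 104 from 80 Mb onward. On chromosome 6, 65 of 73 members lay beyond 110 Mb. The 3 distal intervals cover 4.99% of the genome and held 296 members, by coincidence the same number as chromosomes 8 and 12 as a whole. Of the asynchronous-only peaks far from genes they held 178 (17.1%).

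**Figure D4:**
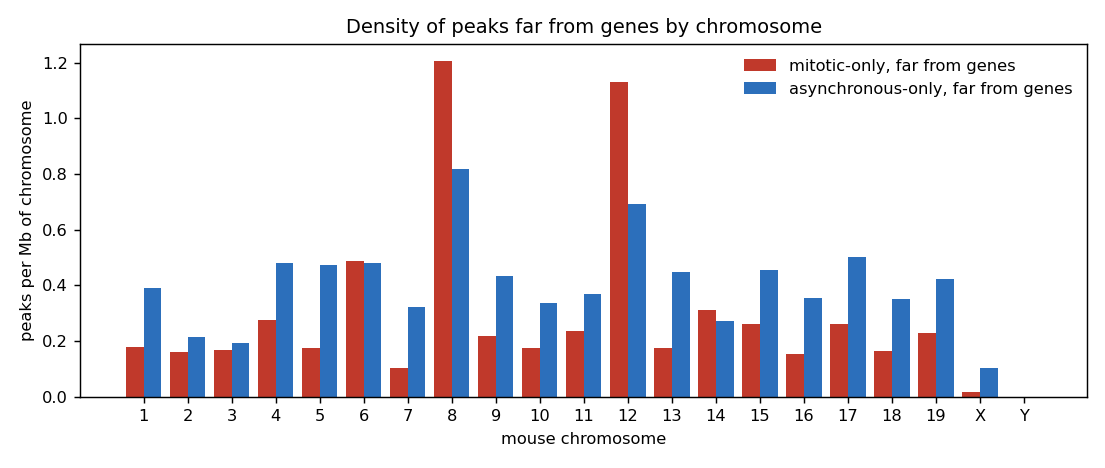
Peaks far from genes per Mb of each mouse chromosome, for members and for asynchronous-only peaks. Members reach 1.21 per Mb on chromosome 8 and 1.13 on chromosome 12, above the asynchronous-only peaks there (0.820 and 0.693), and lie below them on most other chromosomes.

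Some members stood close together. Within 50 kb of another member lay 239 (30.5%), and 379 asynchronous-only peaks (36.3%) lay this close to another of their kind. In 15 groups 4 or more members were each within 50 kb of the next, 70 members in all. Asynchronous-only peaks far from genes formed 16 such groups with 73 peaks and up to 8 in a group. Of the groups of members, 8 were on chromosome 12, 3 on chromosome 14, 2 on chromosome 6 and 2 on chromosome 8. The largest held 7 members over 117 kb next to a U1 gene (chr14:99780482-99897311), with scores of 10.9 to 13.1 and 2 asynchronous peaks in between. Groups of 6 lay near a U2 gene (chr14:100081325-100183456) and near 4933403G14Rik and Sipa1l2 (chr8:128051501-128218425). A group of 5 was near a U6 gene (chr14:99072036-99163719). On chromosome 12, other groups of 5 lay near Dicer1, the nuclease that makes microRNAs, with Gm10000 (chr12:105730307-105860987), and near Begain (chr12:110322579-110377862), these 3 without an asynchronous peak inside. Over all 15 groups, 1 of the 70 members held the RBPJ-binding motif, in a group near Dio3os on chromosome 12, and 1 the CTCF-binding motif, in a group near Mir140 and Psmd7 on chromosome 8, where 8.42% of all members held either.

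The nearest transcript start was a median of 32.3 kb away from a member (quartiles 15.9 and 72.8 kb), and 22.9 kb from an asynchronous-only peak far from genes. Farther than 100 kb lay 130 members (16.6%) and 7.57% of the asynchronous-only peaks. The most remote member (chr3:71587235-71587437) was 955 kb from the start of a U2 gene. Upstream of the nearest start lay 408 members and downstream 376, and 60 were within 10 kb, each of these past the end of the transcript. The nearest asynchronous peak was a median of 80.5 kb away, and 25 members had one within 1 kb. Distances depend in part on the selection, which both categories share.

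**Figure D5:**
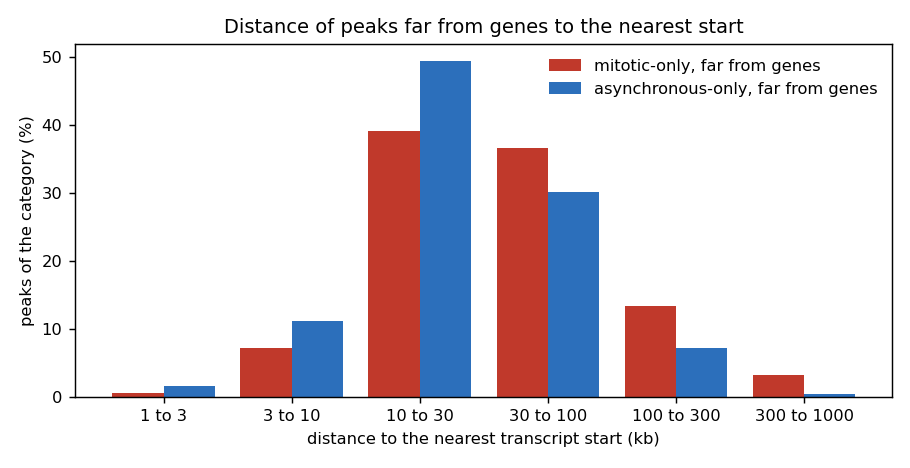
Percent of members and of asynchronous-only peaks far from genes by distance to the nearest transcript start in kb. Members have the larger share in the bins beyond 100 kb, 16.6% against 7.57% in all.

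Members had 613 different nearest genes, and 510 of these had a single member. Protein-coding genes were nearest to 460 members (58.7%) and to 68.3% of the asynchronous-only peaks, and made up 59.98% of all genes. Genes annotated as small nuclear RNAs, a class that includes RNA parts of the splicing machinery, were nearest to 62 members (7.91%) and 3.74% of the asynchronous-only peaks. They made up 3.81% of all genes, and whether these copies are functional was not examined. Of these 62 members, 29 were nearest to just 5 such genes, and 21 lay on chromosome 14, where 3 of the groups were. Pseudogenes were nearest to 81 members (10.3%) and to 8.25% of the asynchronous-only peaks, and made up 13.9% of all genes.

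Of the Notch pathway, 2 of 28 genes had a member within 100 kb of a start (7.14%), against 2130 of all 37310 genes (5.71%) and 6.25% of protein-coding genes. One was Jag2, a ligand of Notch receptors, with a member of score 13.8 at 28.5 kb (chr12:114139089-114139291). The other was Rbpj itself, with a member of score 10.2 located 29.8 kb upstream (chr5:53917122-53917324). Neither member held the RBPJ-binding motif, and 6 of the 28 genes (21.4%) had an asynchronous-only peak far from genes within the same distance, against 9.30% of all genes.

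Of 17 annotated pluripotency genes, 5 had a member within 100 kb (29.4%), and 10 (58.8%) an asynchronous-only peak far from genes, where the shares over all genes were 5.71% and 9.30%. Those with a member were Fgf4, a growth factor of the early embryo (11.7 kb, score 10.2), the Krüppel-like factors Klf5 (16.2 kb, score 10.9) and Klf2 (47.1 kb, score 10.9), the nuclear receptor Esrrb (58.9 kb, score 10.9) and the T-box factor Tbx3 (73.7 kb, score 10.2). None of these members held the RBPJ-binding or the CTCF-binding motif, and their GC contents ran from 52.0% at Tbx3 to 57.2% at Fgf4. These lists are given as counts, with no test.

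Among large gene families, 9 of 1251 olfactory receptor genes (0.719%) had a member within 100 kb, 8 of them the same one near Olfr930 (chr9:38742183-38742385, score 11.6), and 37 (2.96%) had an asynchronous-only peak far from genes. Vomeronasal receptor genes, which encode pheromone receptors, had one at 13 of 437 (2.97%), against 5 (1.14%) for asynchronous-only peaks; 8 of the 13 shared the member near Vmn1r-ps60 (chr7:12596906-12597108, score 11.6). In both families the shares were below those over all genes, 5.71% for members and 9.30% for asynchronous-only peaks. No protocadherin gene of 38 had a member within this distance and 2 (5.26%) had an asynchronous-only peak, and none of the 42 genes of the homeobox clusters had either.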

How the data were processed

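Peak lists of anti-RBPJ ChIP-seq in F9 cells were read as deposited, 1 from asynchronous and 1 from mitotic cells. The authors aligned reads uniquely to mm9 with Bowtie 0.12.7, and HOMER called the peaks over the input of the same population, after which a 1 RPM cutoff was applied. The deposited score of each peak is the authors' own value, its scale is not stated in the paper's text, and it was used only within a list. Unique alignment limits what can be seen of multi-copy sequence. Second immunoprecipitations and inputs were left out, since no processed lists exist for them. The members and the gene lists were chosen with earlier results of these data known.

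Positions were compared with GENCODE vM1 transcripts, and sequences were read from NCBIM37 (mm9) with pysam 0.24.0. A peak was shared when a center of the other list lay within 250 bp. Python 3.11.15 was used with numpy 2.4.6 and pandas 2.3.3, words of 36 bases were counted with numba 0.67.0, members were aligned to each other with blastn 2.17.0 at an expect value of at most 1e-10 and joined with networkx 3.6.1, scipy 1.17.1 gave the tests, and matplotlib 3.10.9 the figures. Motifs were counted on either strand as present or absent, the CTCF-binding motif as the 12-letter core consensus at up to 1 mismatch. An odds ratio with an empty cell had 0.5 added to each cell. The searches and tests were tested on simulated data.

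The genes and regions named were the 10 highest scoring members, the 10 highest scoring members with the RBPJ-binding motif in their full width, groups of at least 4 members each within 50 kb of the next, and genes of the fixed lists with a member within 100 kb. Ties in score were taken in the order of the list. Members near thresholds and the most remote member were named after their values were seen. Alternatives were tried for the definition of shared peaks, the annotation, the score, the sex chromosomes, clustered peaks, the window, the motifs, the sequence thresholds and, chosen after seeing the data, base composition, chromosomes 8 and 12, the center of shared peaks and the uniqueness of windows.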

Additional observations from a re-analysis of the deposited data

How the results depend on the processing

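Of 451 recomputed values, 398 kept their direction and their side of the threshold, 20 kept the direction and lost the threshold, 6 passed it only under the alternative, 25 changed direction, of which 1 passed the threshold, and 2 were member counts that moved by more than 1.5 times. The cause was not tested for any of them. The comparisons of members with asynchronous-only peaks for the RBPJ-binding motif, the CTCF-binding motif, the E-box, GC and CpG kept direction and call under every alternative run. Values below are odds ratios of members to the category named. No paired analysis was possible because only the first replicate of each population has a peak list. The planned test of repeat-masked bases was not run, since the reference marks no repeats. Precision is limited by the number of peaks, above all by the 80 shared ones.

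The member count was 398 with a reach of 50 kb upstream and 445 with scores at or above the median. With centers within 1 kb counted as shared, RBPJ against shared peaks was 0.321 and the octamer against asynchronous-only peaks 0.189. With scores at or above the median, the octamer against introns was 1.70, the E-box 1.31 against flanks and 3.40 against shared peaks, and multi-copy sequence against introns 3.09. With 1 peak per run within 50 kb, RBPJ was 1.05 against flanks and 0.257 against shared peaks, the octamer 0.196 and Esrrb 0.300 against asynchronous-only peaks, Esrrb 1.09 against introns, and multi-copy sequence 2.03 against asynchronous-only peaks. In the full width of each peak, RBPJ against shared peaks was 0.253, Esrrb 0.416 against asynchronous-only peaks and 1.29 against introns, and multi-copy sequence 2.24 against asynchronous-only peaks.

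In 100 bp around the center, RBPJ was 1.09 against flanks and 0.198 against shared peaks, the octamer 0.12 and Esrrb 0.203 against asynchronous-only peaks, AP-1 1.09 against introns, GC 0.348 against shared peaks, and multi-copy sequence 2.20 against asynchronous-only peaks. TTCCCA gave 1.52 against flanks, 0.571 against shared peaks and 1.20 against introns. At a threshold of 45% GC, the odds ratio to shared peaks was 0.644. Tandem repeats of at least 30 bases gave 3.70 against asynchronous-only peaks. Multi-copy sequence was 2.68 against asynchronous-only peaks with 50-base words, and with any word 1.24 against shared peaks and 2.29 against introns.

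The last 4 settings were chosen after seeing the data. In windows with at least 50% GC, RBPJ was 1.14 against flanks and 0.248 against shared peaks, CTCF 2.03 against flanks, Esrrb 0.830 against flanks and 0.326 against asynchronous-only peaks, AP-1 1.34 against flanks, and tandem repeats 0.527 against asynchronous-only peaks and 0.511 against introns. Without chromosomes 8 and 12, which by construction leaves 488 members, also a change of more than 1.5 times, RBPJ was 1.51 against flanks, Esrrb 0.799 against flanks and 1.52 against introns, CpG 1.01 against introns, and multi-copy sequence 1.56 against asynchronous-only peaks. With shared peaks centered on the asynchronous peak, AP-1 against shared peaks was 0.968. In windows without multi-copy words, Esrrb was 0.350 against asynchronous-only peaks, AP-1 0.992 against shared peaks, and tandem repeats 0.157 against flanks, 0.300 against asynchronous-only peaks, 0.322 against shared peaks and 0.364 against introns.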
